A study of Homo sapiens with 10 samples.

Results

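The genes described here are 8 genes of cholesterol synthesis and of the sterol regulatory element-binding proteins (SREBPs), namely SREBF1, SREBF2, INSIG1, HMGCS1, SQLE, IDI1, FDFT1 and LSS. They were chosen by symbol and not by a rule on measured values, though with earlier results of these data known. They are 8 of the 28380 genes in the count table. SREBPs are transcription factors held in the membrane of the endoplasmic reticulum by the escort protein SCAP and the retention proteins INSIG1 and INSIG2 while sterols are plentiful. When sterols run low, SCAP carries SREBPs to the Golgi, where proteases release the part that enters the nucleus and switches on genes of cholesterol synthesis and uptake. Retinal pigment epithelium recycles the lipid-rich outer segments of photoreceptors and moves cholesterol between the blood and the retina.

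RPE-1 is an immortalized human line derived from retinal pigment epithelium, and all cells came from this line and were grown in complete medium. The SFN group of 5 libraries received 25 µM sulforaphane (SFN), an isothiocyanate of cruciferous vegetables, for 4 h, and the DMSO group of 5 libraries received only the vehicle for the same time. The question was how SFN acts on gene expression within hours, and the steady-state mRNA level was the only readout used here. The methods describe replicates as independent, without saying how, and all came from the same line, so the p-values measure the spread between these libraries. The methods name QuantSeq libraries, which read the 3′ ends of transcripts, and total counts ranged from 15689294 to 20666692 in DMSO and from 12375860 to 17308706 in SFN. Levels are given in CPM, the count as a share of a standard library size, after scaling by the trimmed mean of M values (TMM), and they were not compared between genes. In bulk RNA, fewer cells with a transcript and less of it per cell cannot be told apart.

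DMSO replicate 1 stood apart from the other libraries. Its TMM factor was 0.886, against 1.06 to 1.08 in the other DMSO libraries, and its mean Spearman correlation across genes with its own group was 0.935, against 0.979 to 0.982. The fold changes of the 8 genes and the differences in their ratios are therefore given with and without it. HMOX1, a haem oxygenase known to respond to SFN, rose from 19.9 ± 3.01 to 53.1 ± 3.13 CPM (SD, n = 5 each, edgeR adjusted p = 9.9e-06). NQO1, the other gene set as a check of the treatment, had a log2 fold change of 0.31 (edgeR adjusted p = 0.18). Without DMSO replicate 1, NQO1 had a log2 fold change of 0.48 (edgeR adjusted p = 3.3e-04). Of 9 markers of retinal pigment epithelium, RPE65, RLBP1, SERPINF1 and TTR had at most 4 counts in any library, PMEL had 7 to 29, and TYR was not analysed here. MITF and OTX2, which encode transcription factors of this epithelium, were present but fell with SFN, MITF from 50.8 ± 4.95 to 23.4 ± 2.78 CPM (edgeR adjusted p = 5.3e-05) and OTX2 from 14.0 ± 2.14 to 9.01 ± 0.286 CPM (edgeR adjusted p = 0.0029). BEST1 gave 97 to 1244 counts, but its last exon overlaps FTH1, the abundant ferritin heavy chain gene, on the opposite strand, so that it does not serve as a marker here. The cells are thus called RPE-1 by their label, with the defining visual cycle markers near 0. Leukocyte PTPRC and endothelial PECAM1 had at most 6 and 9 counts, and the filament genes KRT8, KRT18 and VIM were abundant.

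Promoter sequence bears on these genes because SREBPs bind sterol regulatory elements. RefSeq windows from 250 bases before to 50 bases after the start (GRCh38.p14) were searched for 6 of the 8 genes, in 9 windows. SQLE and FDFT1 were not searched, so the counts below say nothing about their promoters. SREBF1 was searched only in the window at its outermost start (chr17:17836937-17837236), so any other start of that gene is not covered. The letters TCACNCCAC were searched on both strands and occurred in 1 of the 6 genes, SREBF2, and in 1.13% of all 35116 windows. The shorter core CACNCCAC, which lies inside the first motif and was searched only after that motif had matched a single gene, occurred in SREBF2, INSIG1 and IDI1, against 5.87% of all windows. The 3 windows with a core are shown because they are the ones whose letters resemble the element, with the matched core in capitals. A match describes letters and is no measured binding site. Here and below, a gene was counted if any of its windows matched, while the shares count each window alone, so they are not alike.
SREBF2 promoter, chr22:41832855-41833154, plus strand, core starting at position -132: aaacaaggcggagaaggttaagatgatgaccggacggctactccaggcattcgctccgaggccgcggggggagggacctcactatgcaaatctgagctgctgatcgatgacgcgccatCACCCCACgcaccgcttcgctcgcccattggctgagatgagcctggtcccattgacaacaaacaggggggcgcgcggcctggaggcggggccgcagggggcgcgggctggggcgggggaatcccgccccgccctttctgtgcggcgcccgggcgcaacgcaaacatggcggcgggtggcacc
INSIG1 promoter, chr7:155297628-155297927, plus strand, core read on the opposite strand and starting at position -208: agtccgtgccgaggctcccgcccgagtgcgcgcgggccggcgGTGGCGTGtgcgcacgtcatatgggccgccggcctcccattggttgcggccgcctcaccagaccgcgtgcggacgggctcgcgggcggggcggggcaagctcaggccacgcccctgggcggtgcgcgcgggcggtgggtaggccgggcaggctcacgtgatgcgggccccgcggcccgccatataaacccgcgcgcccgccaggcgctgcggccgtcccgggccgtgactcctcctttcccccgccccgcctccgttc
IDI1 promoter, chr10:1048837-1049136, minus strand, core read on the opposite strand and starting at position -115: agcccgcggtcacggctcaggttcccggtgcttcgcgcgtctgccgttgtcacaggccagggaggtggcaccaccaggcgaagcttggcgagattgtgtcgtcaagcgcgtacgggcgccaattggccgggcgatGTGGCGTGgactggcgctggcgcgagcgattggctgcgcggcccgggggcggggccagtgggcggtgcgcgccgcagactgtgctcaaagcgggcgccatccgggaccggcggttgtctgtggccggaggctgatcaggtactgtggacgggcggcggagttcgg

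The other promoter letters were more common. The GC box GGGCGG was found in 6 of the 6 genes and in 15786 of the 35116 windows (66.2% of the windows of tested genes), and the CCAAT box in 5 of the 6 genes and in 34.6% of windows. The E-box CACGTG occurred in 2 of the 6 genes, INSIG1 and LSS, in 7.26% of all windows and in 9.27% of those of tested genes. The letters TGACNNNGC, part of the antioxidant response element bound by NRF2, a factor known to respond to SFN, occurred in 1 of the 6 genes, HMGCS1, and in 13.3% of all windows.

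SREBF1 and SREBF2 each carry a microRNA in an intron, and the pair is shown because both mature forms share the seed UGCAUUG (bases 2 to 8, in capitals). These microRNAs are known to repress cholesterol efflux genes such as ABCA1. Neither was measured by these libraries: the row of MIR33A held at most 2 counts in a library, and MIR33B was not analysed here.
hsa-miR-33b-5p, in SREBF1 (chr17:17813897-17813916, minus strand): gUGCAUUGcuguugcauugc
hsa-miR-33a-5p, in SREBF2 (chr22:41900949-41900969, plus strand): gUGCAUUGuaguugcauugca

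Across the 8 genes, the response at 4 h was small and uneven. With all 10 libraries, FDFT1, squalene synthase, was the only gene of the 8 to rise, and none fell (edgeR adjusted p under 0.05). This share of 12.5% compares with 23.0% of the 13378 genes tested, 9.07% increased and 13.9% decreased, so the count is no result about these 8 genes in particular. At an unadjusted p under 0.05, 1 gene was higher and 1 was lower, and DESeq2 and limma-voom on quantile normalized values likewise called no decrease. The median log2 fold change of the 8 genes was 0.14, against -0.028 over all genes tested. The groups overlapped for every one of the 8 genes, while 19.9% of all genes tested showed no overlap, 8.78% with SFN above and 11.1% with SFN below.

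**Figure D1:**
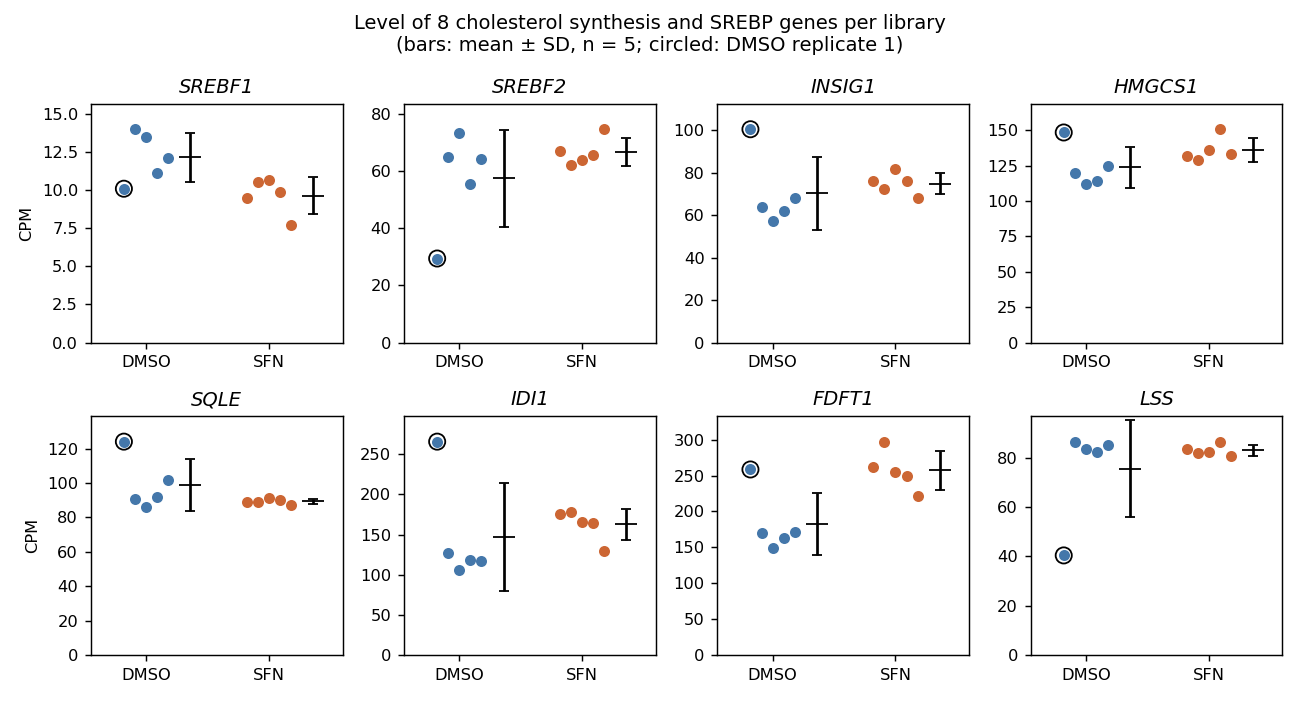
CPM of each of the 8 genes in the 5 DMSO (blue) and 5 SFN (orange) libraries, with the mean ± SD (n = 5) beside each group and DMSO replicate 1 circled. The circled library lies at the edge of its group in every panel, at 265.9 CPM for IDI1 and 40.4 CPM for LSS, and the SFN points of FDFT1 lie between 222.2 and 297.4 CPM.

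Without DMSO replicate 1 the picture changed. By the same test, 4 of the 8 genes were increased (INSIG1, HMGCS1, IDI1 and FDFT1) and 1 was decreased (SREBF1), where 46.1% of 13566 genes tested were called, 22.5% increased and 23.5% decreased. SREBF2, SQLE and LSS stayed uncalled. The median over the 8 genes was then 0.12, against -0.0032 over all genes tested.

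SREBF1, on chromosome 17 (17810399 to 17837002, minus strand), encodes SREBP-1, which is known mainly for fatty acid synthesis. Its level in DMSO replicates 1 to 5 was 10.1, 14.0, 13.5, 11.1 and 12.1 CPM, and in SFN replicates 1 to 5 it was 9.48, 10.5, 10.6, 9.85 and 7.70 CPM. All SFN libraries lay below DMSO replicates 2 to 5, but SFN replicates 2 and 3 lay above DMSO replicate 1, so that the groups overlapped. The log2 fold change was -0.34 (SE 0.14, 95% confidence interval -0.63 to -0.04, edgeR adjusted p = 0.10). Without DMSO replicate 1 it was -0.40 (SE 0.12, edgeR adjusted p = 0.016), and the gene passed the test in 2 of 17 alternatives. Its last exon overlaps RAI1 on the opposite strand, and RAI1 fell from 24.5 ± 7.61 to 12.9 ± 2.71 CPM (edgeR adjusted p = 0.016). Whether strand was used in counting is not given in the sources used here, so reads of these overlapping genes cannot be told apart.

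SREBF2, on chromosome 22 (41833105 to 41907306, plus strand), encodes SREBP-2, the main activator of cholesterol synthesis genes. DMSO replicates 1 to 5 held 29.5, 65.2, 73.4, 55.7 and 64.3 CPM, and SFN replicates 1 to 5 held 67.0, 62.4, 64.0, 65.9 and 74.8 CPM. Apart from DMSO replicate 1, which had less than every other library, the ranges of both groups overlapped. The log2 fold change was 0.21 (SE 0.20, 95% confidence interval -0.22 to 0.65, edgeR adjusted p = 0.50) and 0.04 without DMSO replicate 1 (95% confidence interval -0.16 to 0.24, edgeR adjusted p = 0.74). It passed the test in none of 17 alternatives, and counts of its antisense gene SREBF2-AS1 did not exceed 11 in a library.

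INSIG1, on chromosome 7 (155297776 to 155310235, plus strand), encodes a retention protein that is itself a target of SREBPs. Its level was 100.5, 63.7, 57.2, 61.8 and 68.0 CPM in DMSO replicates 1 to 5 and 76.2, 72.5, 81.8, 75.9 and 68.1 CPM in SFN replicates 1 to 5. DMSO replicate 1 was the highest of all libraries, and the other DMSO libraries all lay below the SFN libraries, though SFN replicate 5 exceeded DMSO replicate 5 only slightly. The log2 fold change was 0.09 (SE 0.15, edgeR adjusted p = 0.72) and, without DMSO replicate 1, 0.25 (SE 0.08, edgeR adjusted p = 0.025).

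HMGCS1, which encodes the cytosolic HMG-CoA synthase at the entry to the mevalonate pathway, lies on chromosome 5 (43287470 to 43313512, minus strand). It was at 148.5, 119.7, 112.4, 114.0 and 124.5 CPM in DMSO replicates 1 to 5 and at 131.9, 128.7, 135.8, 150.8 and 133.6 CPM in SFN replicates 1 to 5. Here too DMSO replicate 1 was within the SFN range while the other 4 DMSO libraries were below it. The log2 fold change of 0.14 (SE 0.10, edgeR adjusted p = 0.40) became 0.21 (SE 0.08, edgeR adjusted p = 0.041) without that library. A lncRNA on the opposite strand overlaps its last exon.

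IDI1, on chromosome 10 (1039152 to 1049119, minus strand), encodes the isomerase that makes dimethylallyl diphosphate from isopentenyl diphosphate. DMSO replicate 1 held 265.9 CPM, the highest value of the gene, and DMSO replicates 2 to 5 held 127.4, 106.1, 118.3 and 117.1 CPM. The SFN replicates held 175.8, 178.4, 165.3, 164.2 and 129.2 CPM, all above DMSO replicates 2 to 5 and all below DMSO replicate 1. IDI1 thus had a log2 fold change of 0.15 with all libraries (SE 0.24, 95% confidence interval -0.37 to 0.66, edgeR adjusted p = 0.72) and of 0.47 without DMSO replicate 1 (SE 0.10, 95% confidence interval 0.25 to 0.68, edgeR adjusted p = 0.0018). IDI2-AS1, which overlaps its last exon on the opposite strand, had 4 to 19 counts, and IDI1 had at least 1830.

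FDFT1, on chromosome 8 (11795573 to 11839395, plus strand), encodes squalene synthase, the enzyme that commits farnesyl diphosphate to sterols. Its level was 258.6, 170.6, 149.5, 162.5 and 171.7 CPM in DMSO replicates 1 to 5 and 262.7, 297.4, 255.6, 249.9 and 222.2 CPM in SFN replicates 1 to 5. DMSO replicate 1 was within the SFN range, and DMSO replicates 2 to 5 were below every SFN library. FDFT1 rose from 183 ± 43.4 to 258 ± 27.0 CPM (SD, n = 5 each), a log2 fold change of 0.50 (SE 0.15, 95% confidence interval 0.16 to 0.83, edgeR adjusted p = 0.037). Without DMSO replicate 1 the log2 fold change was 0.65 (SE 0.09, edgeR adjusted p = 6.0e-05). The adjusted p was above 0.05 when any other library except SFN replicate 5 was left out, up to 0.090, and over 17 alternatives the log2 fold change stayed between 0.43 and 0.65.

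SQLE, on chromosome 8 (124998497 to 125022283, plus strand), encodes squalene epoxidase, a rate-limiting enzyme that acts on the product of FDFT1. DMSO replicates 1 to 5 were at 124.1, 90.7, 85.9, 91.8 and 101.7 CPM and SFN replicates 1 to 5 at 89.1, 88.8, 91.6, 90.2 and 87.5 CPM. The SFN libraries differed little from each other and lay inside the DMSO range. The log2 fold change was -0.14 (SE 0.11, edgeR adjusted p = 0.41), and without DMSO replicate 1 it was -0.05 (95% confidence interval -0.22 to 0.11, edgeR adjusted p = 0.58).

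LSS, on chromosome 21 (46188141 to 46228824, minus strand), encodes lanosterol synthase, which closes the sterol rings. Its level was 40.4 CPM in DMSO replicate 1, then 86.3, 83.5, 82.3 and 85.0 CPM in DMSO replicates 2 to 5, and 83.6, 82.0, 82.4, 86.5 and 80.8 CPM in the SFN replicates. Only DMSO replicate 1 was apart. The log2 fold change of 0.14 (SE 0.18, edgeR adjusted p = 0.65) changed sign to -0.026 without that library (95% confidence interval -0.18 to 0.12, edgeR adjusted p = 0.78).

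DMSO replicate 1 was not uniformly high or low for these genes. Relative to the mean of DMSO replicates 2 to 5, it held 2.27 times as much IDI1, 1.60 times as much INSIG1, 1.58 times as much FDFT1, 1.34 times as much SQLE and 1.26 times as much HMGCS1. It held 0.796 times as much SREBF1, 0.479 times as much LSS and 0.456 times as much SREBF2. The 4 genes with a canonical transcript under 3000 bases (IDI1, INSIG1, FDFT1 and SQLE, 2035 to 2962 bases) were all higher in this library, and of the 4 longer ones (4886 to 5350 bases) 3 were lower, HMGCS1 being the exception. Over all listed genes tested, 30 of 38 shorter genes were higher and 34 of 49 longer genes were lower. The part of transcript length in the results was not tested.

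**Figure D2:**
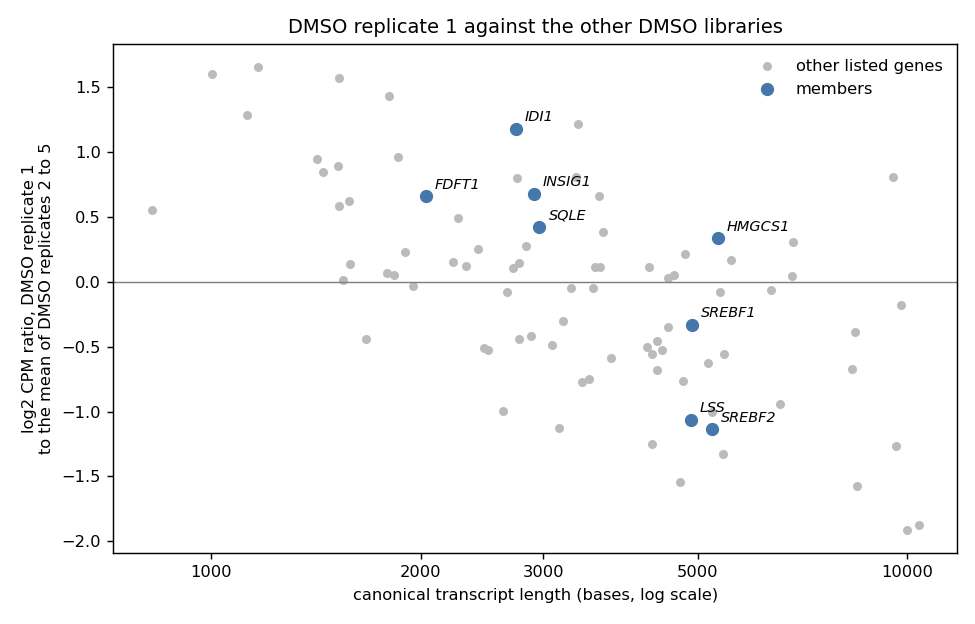
Log2 ratio of CPM in DMSO replicate 1 to the mean of DMSO replicates 2 to 5, against canonical transcript length in bases (log scale), for the 8 genes (blue, named) and the other listed genes (grey), 1 point a gene. The shorter of the 8 genes lie above 0 and SREBF1, LSS and SREBF2, between 4886 and 5237 bases, lie below.

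Ratios of counts within a library do not depend on how libraries are scaled, so the 28 pairs of the 8 genes were compared as log2 ratios by a two-sided exact permutation test that enumerates all 252 ways to assign the libraries to groups. In 6 pairs the groups did not overlap, each with the smallest exact p the design allows, 0.00794 (0.037 adjusted over the 28 pairs). Without DMSO replicate 1, 19 of the 28 pairs had an adjusted exact p under 0.05, against these 6 with it. The 6 pairs were singled out after their values were seen, and pairs share genes. Such counts were not made for pairs of other genes. Among single genes tested, 19.9% showed no overlap, and 46.1% were called without DMSO replicate 1. The counts of pairs are therefore no result about these 8 genes in particular. In the consecutive enzymes of squalene metabolism, FDFT1 to SQLE, the ratio was 2.08, 1.88, 1.74, 1.77 and 1.69 in DMSO replicates 1 to 5 and 2.95, 3.35, 2.79, 2.77 and 2.54 in SFN replicates 1 to 5, so that every SFN library was above every DMSO library. The log2 ratio of SQLE to FDFT1 fell by 0.65, and by 0.70 without DMSO replicate 1 (exact p = 0.00794 in both). INSIG1 to FDFT1 fell by 0.40 on the log2 scale (0.39 without DMSO replicate 1). The log2 ratio of IDI1 to FDFT1 fell by 0.29, and by 0.18 without DMSO replicate 1 (exact permutation p = 0.0159), so the size of this fall depended on that library. HMGCS1 to SQLE was higher in SFN by 0.27, or by 0.26 without that library.

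The ratio of SREBF1 to SREBF2, the genes of both SREBPs, was lower in SFN. It was 0.343, 0.215, 0.184, 0.200 and 0.188 in DMSO replicates 1 to 5 and 0.142, 0.169, 0.167, 0.150 and 0.103 in SFN replicates 1 to 5. The log2 ratio fell by 0.61 (exact permutation p = 0.00794), and by 0.45 without DMSO replicate 1 (exact permutation p = 0.0238). SREBF1 to LSS fell by 0.52, and it fell by 0.38 without DMSO replicate 1. Leaving out each library in turn gave an exact p of at most 0.0238 for the 6 differences. Because these pairs were picked for groups without overlap, leaving out 1 library could not change the sign, and this adds no support. The overlap of SREBF1 with RAI1 touches both ratios that hold SREBF1.

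**Figure D3:**
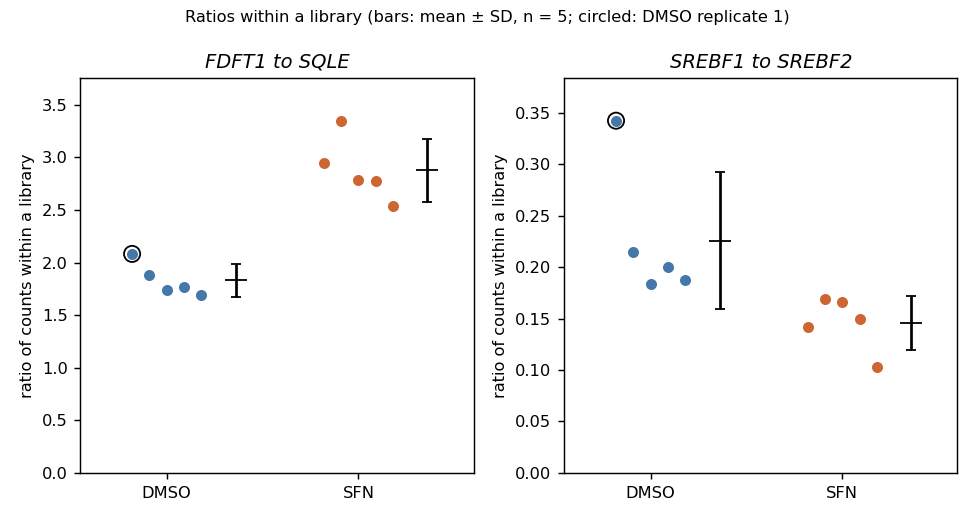
Ratio of counts within each library for FDFT1 to SQLE (left) and SREBF1 to SREBF2 (right), with the mean ± SD (n = 5) beside each group and DMSO replicate 1 circled. The SFN libraries (orange) lie between 2.54 and 3.35 on the left and between 0.103 and 0.169 on the right, outside the range of the DMSO libraries (blue) in both panels.

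Several other enzymes of the cholesterol synthesis pathway rose. Of 17 other enzymes, all tested, 5 rose (among them HSD17B7, MSMO1, ERG28 and SC5D), 1 fell (MVK) and 11 did not pass the test. The called share was 35.3%, beside 23.0% of all genes, and the median log2 fold change was 0.32. The groups did not overlap for 7 of the 17, beside 19.9% of all genes tested. With DMSO replicate 1 left out, 12 were increased and 3 decreased, beside 22.5% and 23.5% of all genes, and the median was 0.45. SC5D is named although the naming rule did not pick it, after its values were seen.

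MVK, mevalonate kinase, fell from 14.6 ± 1.73 to 11.4 ± 0.836 CPM (log2 fold change -0.36, edgeR adjusted p = 0.046) and passed in 6 of 17.

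The largest increases among them were those of HSD17B7 and MSMO1, which act in removing the methyl groups at carbon 4 of the sterol ring. The other genes given below for this step had smaller or opposite changes. MSMO1, the C4-methyl oxidase, was at 70.2, 56.4, 52.3, 68.2 and 75.3 CPM in DMSO replicates 1 to 5 and at 110.4, 143.0, 113.9, 123.7 and 111.7 CPM in SFN replicates 1 to 5. MSMO1 rose with a log2 fold change of 0.90 (SE 0.13, edgeR adjusted p = 3.6e-04). HSD17B7, the ketosteroid reductase of the same complex, rose from 10.3 ± 2.32 to 19.7 ± 4.86 CPM (log2 fold change 0.94, SE 0.19, edgeR adjusted p = 0.0040). It has a near-identical pseudogene, and the counting could have split their reads. ERG28, the scaffold of the complex, rose from 18.9 ± 1.41 to 26.2 ± 2.22 CPM (log2 fold change 0.47, edgeR adjusted p = 0.0068), with reads of TTLL5 and FLVCR2 on the opposite strand not told apart. NSDHL, the decarboxylating dehydrogenase of the complex, which the naming rule did not pick, had a log2 fold change of -0.32 (edgeR adjusted p = 0.079), and -0.31 without DMSO replicate 1 (edgeR adjusted p = 0.037). MSMO1, HSD17B7 and ERG28 passed the test in 17 of 17 alternatives.

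**Figure D4:**
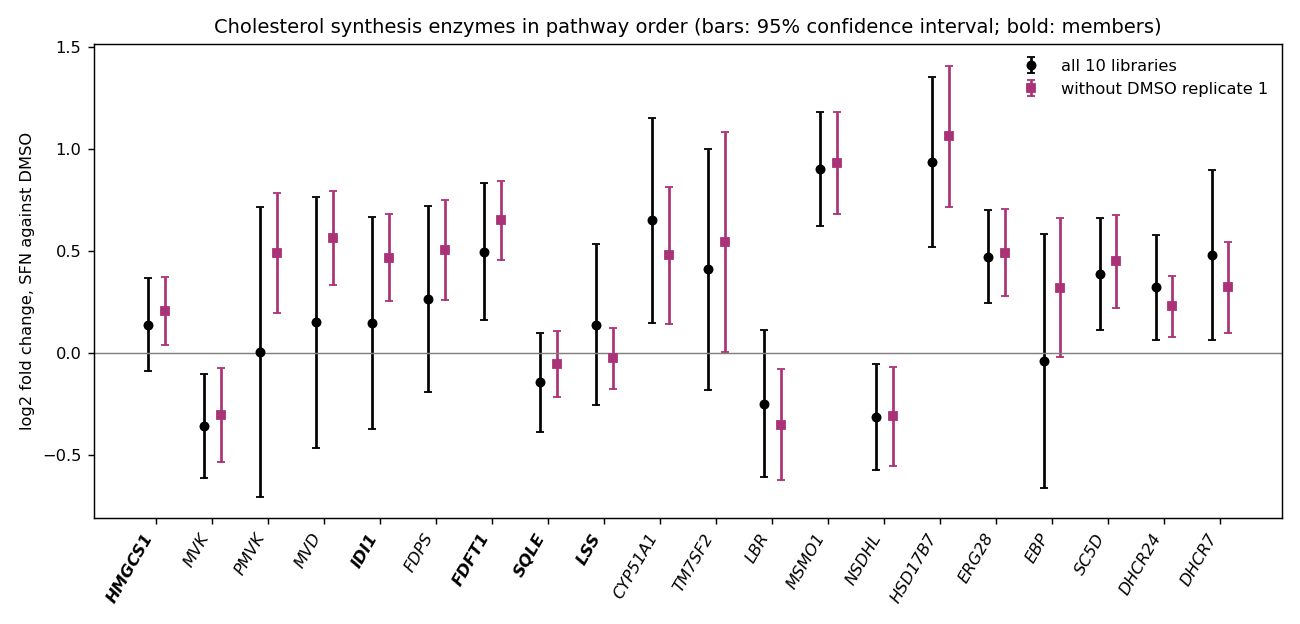
Log2 fold change of SFN against DMSO for 20 cholesterol synthesis enzymes in pathway order, with 95% confidence intervals, from all 10 libraries (black circles) and without DMSO replicate 1 (purple squares), and the 5 enzymes among the 8 genes in bold (ACAT2, which acts before HMGCS1, is among those not drawn). MSMO1 at 0.90 and HSD17B7 at 0.94 are the highest points from all libraries, SQLE lies at -0.14, and the intervals of IDI1 and LSS narrow when DMSO replicate 1 is left out.

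The machinery that processes SREBPs and degrades sterol-regulated proteins was mostly uncalled. Of 16 such genes, 0 were increased by edgeR (1 at an unadjusted p under 0.05, 1 by DESeq2 and 0 by limma-voom on quantile normalized values) and 1 was decreased, beside 9.07% and 13.9% of all genes, and the median log2 fold change was 0.028. SCAP, the escort, was at 23.8 ± 2.62 CPM in DMSO and 24.1 ± 4.23 CPM in SFN, a log2 fold change of 0.018 (95% confidence interval -0.28 to 0.32, edgeR adjusted p = 0.95). INSIG2, the paralog of INSIG1, was at 24.3 ± 2.08 and 24.9 ± 1.93 CPM, a log2 fold change of 0.037 (95% confidence interval -0.19 to 0.27, edgeR adjusted p = 0.85). The sign of both changed with the scaling, as neither gene was far from 0. Without DMSO replicate 1, 2 of the 16 were increased and 1 was decreased, beside 22.5% and 23.5% of all genes, and ERLIN2, among the increased, had a log2 fold change of 0.29 and is named after its values were seen.

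Genes of cholesterol uptake, transport and efflux changed in both directions. Of 22 listed, 18 were tested, 2 were too low to test, among them MYLIP with at most 9 counts in a library, and ABCG1 and CH25H were not analysed here. Of those tested, 4 rose, including STARD3, NPC1 and NPC2, while GRAMD1B and ABCA1 fell, and the other 12 did not pass the test. The called share was 33.3%, beside 23.0% of all genes, and the median log2 fold change was 0.26. NPC2 lies outside the naming rule and is named after its values were seen. Of the 18, without DMSO replicate 1, 5 were increased and 2 decreased, beside 22.5% and 23.5% of all genes.

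NPC1 and NPC2 move cholesterol out of late endosomes and lysosomes, and STARD3 is a cholesterol transfer protein of late endosomes. The last exon of NPC1 overlaps RMC1 on the opposite strand, so their reads cannot be told apart. STARD3 rose with a log2 fold change of 0.58 (edgeR adjusted p = 0.0041), NPC1 with 0.50 (edgeR adjusted p = 0.042) and NPC2 with 0.50 (edgeR adjusted p = 0.041), NPC1 passing in 7 of 17 alternatives.

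ABCA1, the transporter that passes cholesterol to apolipoproteins, was at 4.48 CPM in DMSO replicate 1, at 13.9, 18.1, 16.3 and 17.6 CPM in DMSO replicates 2 to 5, and at 4.41, 3.97, 5.44, 6.41 and 8.54 CPM in SFN replicates 1 to 5. Its only overlap came from DMSO replicate 1, which was as low as the SFN libraries. ABCA1 fell with a log2 fold change of -1.29 (SE 0.34, edgeR adjusted p = 0.017), and -1.52 without DMSO replicate 1 (edgeR adjusted p = 2.1e-05). GRAMD1B, a carrier of cholesterol from the plasma membrane to the endoplasmic reticulum, fell from 8.72 ± 1.61 to 4.89 ± 0.447 CPM (log2 fold change -0.84, edgeR adjusted p = 0.0028).

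Fatty acid genes, the other arm of SREBP targets, were mostly uncalled. Of 16 tested, 1 rose, 1 fell and 14 did not pass the test, a called share of 12.5%, beside 23.0% of all genes, with a median log2 fold change of 0.14. ELOVL5, an elongase of polyunsaturated fatty acids, rose from 333 ± 46.5 to 466 ± 24.7 CPM (log2 fold change 0.49, SE 0.12, edgeR adjusted p = 0.011), and PNPLA3, a lipid droplet hydrolase, fell from 9.03 ± 2.69 to 5.41 ± 0.879 CPM (log2 fold change -0.74, SE 0.20, edgeR adjusted p = 0.021). Of the uncalled genes, fatty acid synthase FASN and the desaturase SCD are named outside the naming rule, after their values were seen. FASN was at 49.1 CPM in DMSO replicate 1, at 126.4 to 170.1 CPM in the other DMSO libraries and at 131.0 to 152.0 CPM in SFN, and its log2 fold change of 0.13 turned to -0.082 without DMSO replicate 1 (edgeR adjusted p = 0.49). SCD was at 309.1 CPM in DMSO replicate 1, at 599.7 to 642.6 CPM in the other DMSO libraries and at 524.3 to 761.5 CPM in SFN, with a log2 fold change of 0.20, or 0.044 without DMSO replicate 1 (edgeR adjusted p = 0.74). Of the 16, without DMSO replicate 1, 4 were increased and 2 decreased, beside 22.5% and 23.5% of all genes.

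The prenyl branch, which draws farnesyl diphosphate away from sterols, had 12 tested genes, of which 2 rose, 1 fell and 9 did not pass the test, beside 23.0% of all genes called. GGPS1, which makes geranylgeranyl diphosphate, rose from 7.39 ± 1.80 to 11.2 ± 1.05 CPM (log2 fold change 0.60, edgeR adjusted p = 0.020). Its groups overlapped, and it passed in 14 of 17 alternatives. The last exon of GGPS1 overlaps another protein-coding gene on the same strand, so their reads cannot be told apart. PDSS2, of the ubiquinone side chain, rose from 17.1 ± 2.43 to 22.5 ± 1.56 CPM (log2 fold change 0.40, edgeR adjusted p = 0.035), passing in 8 of 17 alternatives. DHDDS, of the dolichol pathway, fell from 38.98 ± 3.90 to 25.7 ± 1.89 CPM (log2 fold change -0.60, edgeR adjusted p = 0.0018). Over the 12 genes the log2 fold change had a median of 0.17. When DMSO replicate 1 was left out, 5 were increased and 1 decreased, beside 22.5% and 23.5% of all genes.

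For each of the 8 genes, the gene with the most similar profile was sought among 9950 genes outside the lists above. Likeness was the smallest root mean square difference between centred log2 CPM over the 10 libraries. The nearest genes were TMCC2 for SREBF1 (0.085), GPR176 for SREBF2 (0.062), GOLPH3 for INSIG1 (0.062), SDC2 for HMGCS1 (0.060), CAAP1 for SQLE (0.042), ISCU for IDI1 (0.044), SAP18 for FDFT1 (0.052) and PFKP for LSS (0.058), in log2 units. The median difference over the same genes was 0.34 to 0.48. Because listed genes were left out of the search, it does not show whether another gene of the pathway lay nearer. For IDI1 the likeness held DMSO replicate 1 in it, where ISCU stood at 99.6 CPM against 41.4 to 49.3 CPM in the other DMSO libraries. Of the 8 nearest genes, TMCC2 passed the test with all libraries (log2 fold change -0.43, edgeR adjusted p = 0.044) but in only 6 of 17 alternatives. Without DMSO replicate 1, TMCC2, GOLPH3, SDC2, ISCU and SAP18 passed it. The likeness itself was measured only over all 10 libraries.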

How the data were processed

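RNA from RPE-1 cells given DMSO or 25 µM SFN for 4 h was sequenced by the authors, 5 libraries a group. They deposited raw counts per Ensembl gene, unnormalized and with replicates separate. Per the methods, Lexogen QuantSeq reads went through the Bluebee pipeline, and the submitters' processing notes name FastQC, STAR, featureCounts, edgeR and GRCh38 (hg38). Versions, the annotation release and the use of strand or molecular identifiers are not given in the sources used here. The authors tested with edgeR and limma on quantile normalized voom values, with repeated measures that are not defined. Reads of QuantSeq cover the 3′ end, so a gene's count depends on its annotated end and on RNA fragmentation.

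Here counts were filtered with filterByExpr (13378 of 28380 genes), scaled by TMM, and tested in edgeR 4.0.16 (R 4.3.3) with glmQLFit, glmQLFTest and Benjamini-Hochberg adjustment over all genes tested, and a gene was called at an adjusted p under 0.05. No covariate was used. Standard errors were obtained from the size of each log2 change and its F statistic, as their ratio with the root of F. The alternatives were other size factors, DESeq2 1.42.0, limma 3.58.1 (quantile normalization, or sample quality weights), no low-count filter, a replicate block and leaving out each library. Leaving out both DMSO replicate 1 and SFN replicate 2 was chosen after seeing the data. The fits were tested on simulated data. Intervals cover the spread between libraries, and counting error is part of it.

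The 8 genes, the 5 further lists and the tests were chosen with earlier results of these data known. Of 106 listed genes, 102 were matched by Ensembl identifier. Genes were named by rule: the 8 genes, SCAP and INSIG2, HMOX1 and NQO1, up to 3 increased and 3 decreased per list with the largest change and a mean of at least 5 CPM, and the nearest profile of each of the 8 genes. Named genes outside it are marked where they occur. A few listed genes enter the counts and medians of their lists but are not reported here. Positions and transcript lengths are those of GENCODE 44. Promoter and microRNA sequences are from RefSeq (GRCh38.p14).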

Additional observations from a re-analysis of the deposited data

Results flagged for a closer look

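Dixon's ratio is the gap of the most extreme library to its neighbour over the range of its group. It was above 0.71, its 95% critical value for 5 libraries, in 25 of 74 groups examined, and 18 of the 25 were DMSO replicate 1. Chance gives about 3.7 for groups not picked by their values. Some groups here belong to genes picked by their values in these libraries, such as those nearest in profile, so that number is only a rough guide. Among the 8 genes, the ratios for DMSO replicate 1 were 0.75 for INSIG1 (highest), 0.866 for IDI1 (highest), 0.796 for FDFT1 (highest) and 0.913 for LSS (lowest), and IDI1 was also apart at the low end in SFN replicate 5 (0.712).

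Of the other pathway genes, DMSO replicate 1 stood apart at the low end for GRAMD1B (0.737) and at the high end for PNPLA3 (0.747), STARD3 (0.781) and GGPS1 (0.838). INSIG2 was apart at the low end in DMSO replicate 2 (0.718). HSD17B7 was apart at the high end in SFN replicate 2 (0.717), ELOVL5 at the low end in SFN replicate 2 (0.839) and ERG28 at the low end in SFN replicate 5 (0.74).

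The genes nearest in profile showed the same library, over which the likeness was also measured. DMSO replicate 1 was apart for GPR176 (0.747, lowest), GOLPH3 (0.838, highest), CAAP1 (0.758, highest), ISCU (0.865, highest), SAP18 (0.776, highest) and PFKP (0.864, lowest), and CAAP1 was apart at the low end in SFN replicate 2 (0.775).

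NQO1, a quinone reductase and standard target of NRF2, had the largest ratio of the 25, 0.975. It was at 311.9 CPM in DMSO replicate 1 and at 190 to 193 CPM in the other DMSO libraries, and it did not pass the test with all libraries (log2 fold change 0.31, edgeR adjusted p = 0.18) but did without DMSO replicate 1 (0.48, edgeR adjusted p = 3.3e-04). At the level of whole libraries, DMSO replicate 1 was lowest in its TMM factor (0.907) and in its mean Spearman correlation with its group (0.933) and highest in the share of counts in the 10 most abundant genes (0.844), which was 7.24% against 5.54% to 5.81% in the other DMSO libraries. SFN replicate 2 was highest in that share within SFN (0.79), at 7.50% against 6.28% to 6.54%. What set these libraries apart was not tested.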

How the results depend on the processing

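The number of the 8 genes called depended on DMSO replicate 1. With sample quality weights, which gave DMSO replicate 1 a weight of 0.0568, and also without DMSO replicate 1 and SFN replicate 2 together (chosen after seeing the data), 4 of the 8 were increased and 1 decreased, and leaving out 1 library gave 0 to 4 increased and 0 to 1 decreased. Over all genes, 3076 calls became 7915 with weights and 6379 without both libraries, and 2383 to 6251 when 1 library was left out, the highest without DMSO replicate 1. The share of calls that were increases was 39.5%, and it was 27.5% under library size only, 48.9% with weights and 48.9% without DMSO replicate 1.

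Among the other synthesis enzymes, 5 increased became 3 under library size only, with no low-count filter and with the replicate block, 14 with weights and 12 without both libraries, and 3 to 12 when 1 library was left out. Their 1 decrease became 0 under RLE size factors, quantile normalization, no filter and the block, 2 under library size only and 3 with weights and without both libraries (0 to 3 when 1 library was left out). For SREBP processing, 0 increased became 1 by DESeq2 and 3 with weights and without both libraries (0 to 2), and the 1 decrease became 0 by quantile normalization, no filter and the block (0 to 1). Fatty acid genes gave 1 increase, or 0 under library size only and quantile normalization, 3 by DESeq2, 5 with weights and 4 without both libraries (1 to 4), and 1 decrease, or 0 by quantile normalization, 3 with weights and 2 without both libraries (1 to 2). Uptake, transport and efflux gave 4 increases, or 2 by quantile normalization and without the filter, 10 with weights and 7 without both libraries (2 to 5), and 2 decreases, or 1 by quantile normalization. The prenyl branch gave 2 increases, or 1 under library size only, no filter and the block, 6 with weights and 5 without both libraries (0 to 5).

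Among the genes picked by the naming rule, signs changed for 4. LSS turned to -0.0015 with weights, -0.026 without DMSO replicate 1 and -0.017 without both libraries. SCAP turned to -0.069 under library size only, -0.030 without DMSO replicate 4, -0.0094 without DMSO replicate 5, -0.080 without SFN replicate 2 and -0.061 without both libraries. INSIG2 turned to -0.044 under library size only and -0.017 without DMSO replicate 2, and PFKP to -0.036 under library size only, -0.072 with weights, -0.092 without DMSO replicate 1 and -0.093 without both libraries, all on the log2 scale. Leaving out 1 library gave -0.026 to 0.19 for LSS, -0.080 to 0.084 for SCAP, -0.017 to 0.080 for INSIG2 and -0.092 to 0.14 for PFKP. The causes were not tested.

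Same-numbered libraries did not deviate together throughout. This check cannot exclude a pairing, as DMSO replicate 1 enters the DMSO means from which the deviations are taken. The correlation across genes of same-numbered deviations from the group means was 0.039, -0.27, -0.060, 0.031 and 0.48 for replicates 1 to 5. With the block, all genes gave 2441 calls, and the 8 genes had 1 increase and 0 decreases. With 5 libraries a group, a missed threshold does not show that a level did not differ, and the intervals that all 10 libraries gave for SREBF2, INSIG1, HMGCS1, SQLE, IDI1 and LSS included 0.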
